A study of Mus musculus with 11 samples.

Results

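Gene expression in the paraxial mesoderm of the mouse embryo was compared with that in the neuroepithelium at embryonic day 8.5, on 3 arrays of each tissue. These 6 arrays were all those that the labels assign to the 2 tissues, of 11 in the series, and the other 5 came from neural crest. All embryos were outbred CD1 mice with no transgene or treatment given in the labels, and the neuroepithelium is spelled neuroepithilium there. Tissue was taken by laser capture from frozen cryostat sections, and the RNA was amplified before it was hybridised to Affymetrix mouse ST arrays. Single cells are named in the series text, but how many cells or which embryo lies behind an array is not in the labels, so the p-values measure only the spread between these arrays.

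The paraxial mesoderm lies on both sides of the neural tube. In the trunk it segments into somites, which give rise to vertebrae, skeletal muscle and dermis, and in the head it stays unsegmented and contributes to muscle and skull. Most of its cells are mesenchymal, whereas the neuroepithelium is a pseudostratified epithelium with apical junctions from which the brain and spinal cord form. The surface ectoderm, the notochord, the gut endoderm, the first blood vessels and the primitive red cells in them lie close to both tissues at this stage.

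Each deposited value is a ratio to a reference of its own probe. On 8 of the 11 arrays a value of exactly 1 occurred on many probes, and on no probe did more than 4 of those 8 arrays exceed 1, so the reference is the middle value of a set of 9 arrays, these 8 and 1 that is not analysed here. Neuroepithelium array 2 is outside that set, and the other 5 arrays compared here are inside it. Genes that are off throughout and genes that are on throughout both sit near 1, and a gene active in most samples cannot stand out as high. In what follows a gene is called high on an array at a ratio of at least 4 and low at a ratio of 0.25 or less, and log2 differences are the mean of the mesoderm arrays minus the mean of the neuroepithelium arrays.

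Promoters of 4 genes that the results turn on are shown because all 4 genes were high on every neuroepithelium array. Cldn7 and Krt18 were also high on mesoderm array 2, whereas Epcam and Ypel1 were high on no mesoderm array. They run from 250 bases before to 50 bases after the transcription start in RefSeq (GRCm38.p6), and lie at chr17:87635729-87636028 on the plus strand for Epcam, chr15:102027966-102028265 on the plus strand for Krt18, chr11:69964529-69964828 on the plus strand for Cldn7 and chr16:17069889-17070188 on the plus strand for Ypel1. Capitals mark the E-box CAGGTG or its reverse complement CACCTG, a motif that the repressors of the Snail and Zeb families bind among other factors, and the GC box GGGCGG or its reverse complement CCGCCC.
Epcam: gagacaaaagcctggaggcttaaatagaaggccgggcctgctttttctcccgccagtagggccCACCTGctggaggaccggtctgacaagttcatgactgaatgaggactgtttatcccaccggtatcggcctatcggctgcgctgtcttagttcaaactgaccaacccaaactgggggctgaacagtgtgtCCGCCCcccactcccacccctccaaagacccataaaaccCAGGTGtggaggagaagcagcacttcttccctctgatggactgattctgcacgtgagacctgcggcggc
Krt18: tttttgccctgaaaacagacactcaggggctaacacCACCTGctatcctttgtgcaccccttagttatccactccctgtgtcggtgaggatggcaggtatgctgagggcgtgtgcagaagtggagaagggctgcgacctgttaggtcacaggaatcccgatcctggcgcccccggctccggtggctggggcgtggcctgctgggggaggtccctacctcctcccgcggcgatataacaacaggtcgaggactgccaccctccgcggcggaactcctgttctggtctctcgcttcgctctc
Cldn7: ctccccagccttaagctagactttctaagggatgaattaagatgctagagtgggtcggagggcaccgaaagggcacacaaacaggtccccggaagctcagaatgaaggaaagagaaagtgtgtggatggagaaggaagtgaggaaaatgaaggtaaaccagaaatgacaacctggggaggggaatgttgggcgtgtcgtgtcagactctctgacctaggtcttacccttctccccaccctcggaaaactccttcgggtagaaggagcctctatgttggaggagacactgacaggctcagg
Ypel1: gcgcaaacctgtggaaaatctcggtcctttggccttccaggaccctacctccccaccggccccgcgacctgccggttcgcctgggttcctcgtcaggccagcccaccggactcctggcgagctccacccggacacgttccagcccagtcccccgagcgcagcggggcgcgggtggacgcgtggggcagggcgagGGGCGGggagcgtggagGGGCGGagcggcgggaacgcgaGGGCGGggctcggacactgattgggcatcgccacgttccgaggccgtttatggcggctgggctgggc
The Epcam promoter held 2 matches to the E-box and 1 to the GC box. The Krt18 promoter held 1 E-box, the Ypel1 promoter held 3 GC boxes and no E-box, and the Cldn7 window held neither. Motifs were searched on both strands in the first listed promoter of each gene, and the 2 motifs can share a base at their ends. Of 35 measured genes on a list of epithelial junction and polarity genes, 23 had a promoter in the RefSeq table, and 16 of these 23 (69.6%) held the E-box, against 20% of 27025 promoters in the table and 19.2% of 15614 promoters of genes tested here. The GC box was in 18 of the 23 (78.3%), against 35.9% of all promoters and 49.9% of those of genes tested. Of 24 promoters of genes high on all 3 neuroepithelium arrays and on no mesoderm array, 4 (16.7%) held the E-box, near the share of genes tested, and 17 (70.8%) held the GC box. A match describes these letters and shows no binding.

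The defining regulators of the 2 tissues stood near their reference on all 6 arrays. All 28 measured members of a list of somite and paraxial mesoderm genes lay within 2-fold of it. Tcf15, a somite bHLH factor, had ratios of 0.85, 0.952 and 1.22 on mesoderm arrays 1, 2 and 3 and of 1, 1.02 and 0.939 on neuroepithelium arrays 1, 2 and 3. Meox1, a somite homeobox gene, had 0.963, 0.953 and 1.05 on the mesoderm and 0.99, 1.19 and 1 on the neuroepithelium. The forkhead genes Foxc1 and Foxc2, Pax3 of the dermomyotome and Tbx6 of the presomitic mesoderm likewise ranged from 0.875 (Pax3 on mesoderm array 3) to 1.26 (Tbx6 on mesoderm array 3) over the 6 arrays, with the mesoderm and neuroepithelium ranges overlapping for each. On the neural side, Sox1 and Pax6 stayed between 0.865 and 1.27, and Sox3 between 0.624 and 1.24. Sox2, which marks neural progenitors, was 1 to 1.03 on the neuroepithelium and 2.7 on mesoderm array 3. Otx2, a regulator of forebrain and midbrain, was at 112 on neuroepithelium array 3 and at 53.6 on mesoderm array 2 and near 1 on the other 4. The measured markers therefore did not set the labelled tissues apart, in either direction, and ratios of this kind cannot show whether a marker was present in both or in neither.

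Across genes, 15375 of 19938 (77.1%) stayed within 2-fold of reference on the 6 arrays. In a limma fit of log2 ratios to all 11 arrays, 3 genes passed at an adjusted p under 0.05 (0.015% of those tested), all of them lower in mesoderm, and 0 passed as higher, with 495 genes (2.48%) at an unadjusted p under 0.05. The 3 were Epcam, Ypel1 and Gm5617. These counts depended on single arrays. Without mesoderm array 1, 2 or 3, 3, 8 and 34 genes passed as higher and 4, 6 and 5 as lower, and without neuroepithelium array 1, 2 or 3, 1, 0 and 1 passed as higher and 9, 14 and 12 as lower. Without crest array 2, 1 passed as higher and 4 as lower, and without crest array 5, 4 passed as lower. Epcam, Ypel1 and Gm5617 passed each time. Fewer cells of a type and less RNA per cell cannot be told apart in such samples.

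Epcam, an adhesion molecule of epithelial cells, had ratios of 41.9, 38.8 and 37.4 on neuroepithelium arrays 1, 2 and 3 and of 0.947, 1 and 1 on mesoderm arrays 1, 2 and 3. The 3 neuroepithelium arrays were thus nearly equal, and all lay above every mesoderm and every neural crest array, where the highest ratio was 1.03. The log2 difference was -5.32 (SE 0.052, n = 3 and 3 arrays, limma adjusted p = 1.52e-10, lower on 3 of 3 mesoderm arrays). Over 21 alternative settings, the limma adjusted p of Epcam ran from 1.16e-10 to 0.0332, the highest with a trend in the variance.

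Ypel1, of the yippee-like family of small zinc-binding proteins, had ratios of 24, 40.3 and 30.1 on the neuroepithelium and of 0.667, 0.896 and 1 on the mesoderm. Its crest arrays lay between 0.749 and 1.11, on the mesoderm side. This gave a log2 difference of -5.19 (SE 0.22, limma adjusted p = 3.06e-05, lower on 3 of 3 mesoderm arrays). Over the 21 alternatives the limma adjusted p of Ypel1 ran from 2.35e-05 to 0.0379, the highest with only the 6 arrays in the fit. A second Ypel1 probe gave -0.55, with 1.35, 1.38 and 1.18 on the neuroepithelium against 0.881, 0.798 and 0.982, so the 2 probes disagree in size and share the direction. With the mean of the 2 probes, the difference was -2.87.

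Gm5617, a predicted gene of no assigned role, had ratios of 37.8, 95.4 and 44 on the neuroepithelium and of 0.825, 2.68 and 0.809 on the mesoderm. The sets do not overlap, and mesoderm array 2 was the highest of its tissue. The fitted log2 difference was -5.48 (SE 0.48, limma adjusted p = 0.0102, lower on 3 of 3 mesoderm arrays). It did not pass with a trend in the variance (adjusted p = 0.384 in limma), with the replicate number as a block (0.396) or with only the 6 arrays in the fit (0.525), and over all 21 alternatives its adjusted p ran from 0.00041 to 0.525.

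The 3 mesoderm arrays and the 3 neuroepithelium arrays did not overlap for 563 genes (2.82%) placed higher in mesoderm and for 802 (4.02%) placed lower. With 3 arrays a side, sets of arrays unrelated to tissue also part for some genes, so these counts alone show no tissue difference. Across genes, log2 ratios correlated at 0.0166 to 0.156 between arrays of 1 tissue and at 0.0325 to 0.24 between arrays of different tissues. Most such separations were small, since 1060 of the 1365 had means under 2-fold apart. At the nearest arrays, 22 genes (0.11%) lay at least 4-fold lower on every mesoderm array than on any neuroepithelium array, and 11 (0.0552%) at least 4-fold higher. Except for the 3 named above, these genes did not pass the limma test. Crest arrays lay on both sides for 19 of the 22 and for 10 of the 11. With only the 6 arrays in the fit, 4 genes passed as lower (Epcam, Ypel1, Sertad1 and Scand1) and 1 as higher (Etfa).

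**Figure D1:**
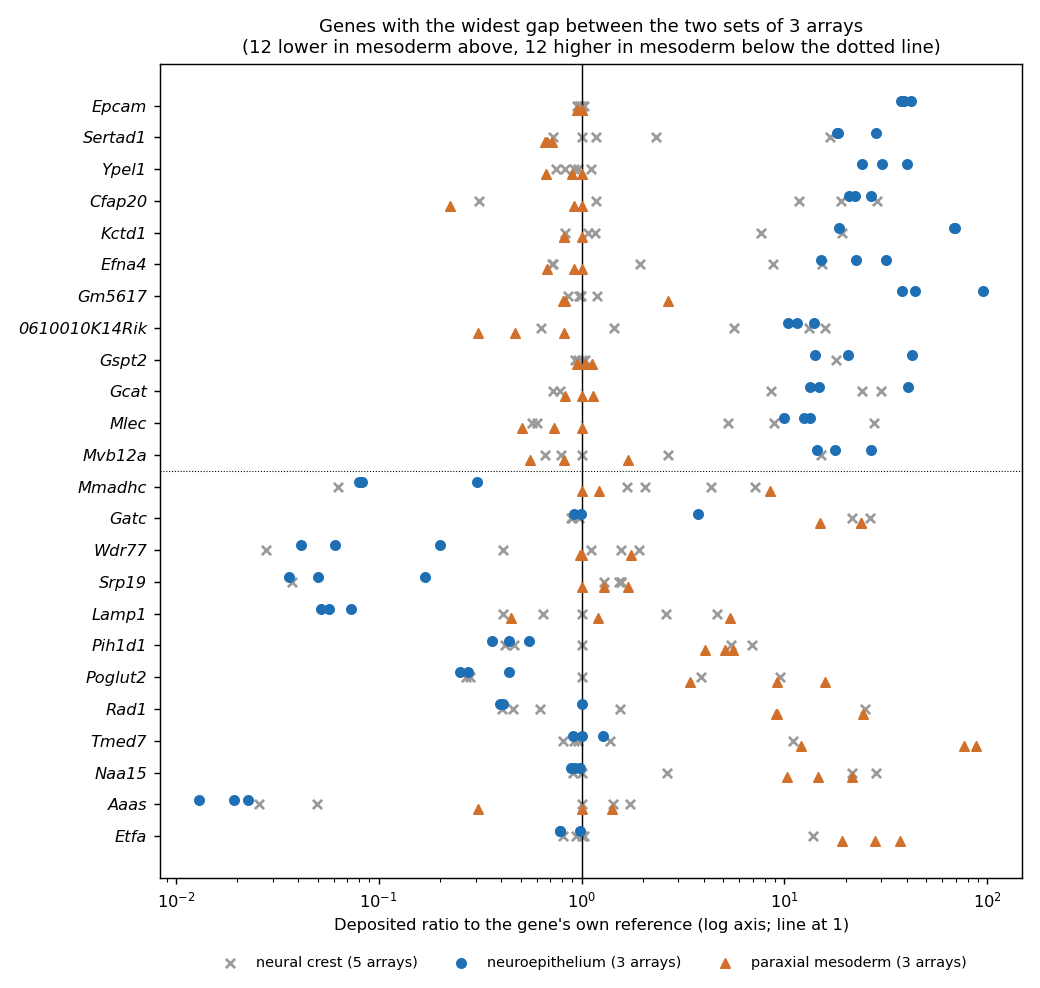
Ratio of each array to the reference (log axis) for the 12 genes with the widest gap in each direction, with 1 point per array. Epcam, Ypel1 and Gm5617 have all 5 crest arrays beside the mesoderm, whereas Etfa has 1 crest array at 13.8 and the others near 1.

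Of the 22 genes placed lower in mesoderm, 21 were high on all 3 neuroepithelium arrays and 1, Id2, was low on all 3 mesoderm arrays. Sertad1, a regulator of cyclin-dependent kinase 4, had the second widest gap, with 18.2, 28.1 and 18.3 on the neuroepithelium against 0.658, 0.718 and 0.676. Its mesoderm arrays differed little among themselves, and the nearest arrays of the 2 tissues were 25.4-fold apart. The log2 difference was -4.95 (SE 1.01, limma adjusted p = 1), with crest array 2 at 16.8. It passed without that crest array (limma adjusted p = 0.00852) and with only the 6 arrays in the fit (0.0263), over a range of 0.00852 to 1 in the alternatives. No other crest array was high for Sertad1, so leaving out that array is no test of the tissues.

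Cfap20, a protein of cilia and flagella, had 26.6, 20.9 and 22.2 on the neuroepithelium and 1, 0.917 and 0.224 on the mesoderm. Kctd1, a repressor of AP-2 transcription factors, had 69.4, 68.3 and 18.5 against 0.817, 1 and 0.818. Efna4, an ephrin ligand for Eph receptors, had 15.2, 31.7 and 22.4 against 0.679, 0.919 and 1. All 3 were also high on 2 or 3 of the 5 crest arrays.

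Gspt2, a translation termination factor, had 42.5, 14.1 and 20.6 on the neuroepithelium and 1.04, 1.12 and 0.952 on the mesoderm, and it was high on 1 crest array. Gcat, an enzyme of threonine breakdown, had 40.8, 14.8 and 13.3 against 0.827, 1.14 and 1. Mvb12a, a subunit of the ESCRT-I sorting complex, had 14.4, 26.6 and 17.7 against 1.69, 0.818 and 0.558. The nearest arrays of these 3 genes were 12.6-fold, 11.7-fold and 8.48-fold apart.

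The remaining genes of the 12 widest gaps were 0610010K14Rik, with 10.4 to 14 on the neuroepithelium against 0.823, 0.31 and 0.468, and Mlec, a lectin of the endoplasmic reticulum. Mlec had 13.3, 10 and 12.5 against 0.73, 1 and 0.51 on its chosen probe. Its other probe gave a log2 difference of -0.16 where the chosen one gave -4.04, so the separation rests on 1 probe. The other genes of the 22 had gaps from 4.13-fold (Yars2, a mitochondrial tyrosyl-tRNA synthetase, named after its values were seen) to 7.78-fold (Id2).

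The 11 genes placed higher in mesoderm fell into different shapes. In 6 of them every mesoderm array was high, and in 4 every neuroepithelium array was low. Etfa, the alpha subunit of the electron transfer flavoprotein that takes electrons from mitochondrial fatty acid oxidation, had 28, 19.2 and 37.1 on mesoderm arrays 1, 2 and 3 and 0.782, 0.979 and 0.783 on the neuroepithelium. Its nearest arrays were 19.6-fold apart, the widest gap on this side, with crest array 2 at 13.8. Its log2 difference was 5.01 (SE 0.98, limma adjusted p = 1, higher on 3 of 3 mesoderm arrays). It passed without that crest array (limma adjusted p = 0.000168) and with only the 6 arrays in the fit (0.049), over a range of 0.000168 to 1 in the alternatives. No other crest array was high for Etfa, so leaving out that array is no test of the tissues.

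Naa15, a subunit of an N-terminal acetyltransferase, had 10.3, 21.5 and 14.6 on the mesoderm and 0.923, 0.889 and 0.986 on the neuroepithelium. Tmed7, a cargo receptor between endoplasmic reticulum and Golgi, had 12.1, 76.4 and 87.6 against 1, 1.27 and 0.912. Rad1, of the DNA damage checkpoint clamp, had 9.11, 9.22 and 24.4 against 0.409, 0.395 and 1. In these 3 genes the mesoderm arrays stood out as high while no neuroepithelium array exceeded 1.27.

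Pih1d1, of a chaperone complex that assembles large protein machines, had 5.59, 5.09 and 4.07 on the mesoderm and 0.553, 0.44 and 0.36 on the neuroepithelium, with 2 crest arrays high. Gatc, a subunit of the mitochondrial enzyme that makes glutaminyl-tRNA, had 23.9, 23.7 and 15 against 0.916, 3.74 and 0.996. Poglut2, an O-glucosyltransferase, had 3.43, 9.18 and 15.9 against 0.253, 0.277 and 0.438. Neuroepithelium array 2 came closest to the mesoderm for Gatc, at a gap of 4.02-fold.

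The opposite shape, with every neuroepithelium array low and no mesoderm array low, was that of Aaas, Lamp1, Srp19 and Wdr77. Aaas, a nuclear pore protein, had 0.013, 0.0227 and 0.0193 on the neuroepithelium and 1.41, 0.309 and 1 on the mesoderm. Srp19, of the signal recognition particle, had 0.0363, 0.0505 and 0.169 against 1.7, 1.29 and 1. Wdr77, a partner of the arginine methyltransferase Prmt5, had 0.201, 0.0415 and 0.061 against 0.983, 1.75 and 1. The 4 genes were all those (0.0201%) that were low on every neuroepithelium array and on no mesoderm array.

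Lamp1, a major membrane protein of the lysosome, was the fourth, with 0.0519, 0.057 and 0.0729 on the neuroepithelium and 1.21, 0.45 and 5.36 on the mesoderm. All 5 crest arrays of Lamp1 lay on the mesoderm side, between 0.41 and 4.64. Its log2 difference was 4.58 (SE 1.06, limma adjusted p = 1). Mmadhc, a cobalamin processing protein that closes the 12 widest gaps at 3.29-fold, had 0.0823, 0.08 and 0.304 on the neuroepithelium against 1, 1.22 and 8.46.

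Agreement among arrays of a tissue was limited on both sides. Of the genes high on some mesoderm array and on no neuroepithelium array, 1227 were high on 1 array, 175 on 2 and 7 on 3 (0.0351% of all). On the neuroepithelium without the mesoderm the counts were 796, 141 and 28 (0.14%). Mesoderm array 1 alone of the 6 was high for 787 genes, array 2 for 294 and array 3 for 146, and the 2 mesoderm arrays most often high together without a neuroepithelium array were 1 and 2, with 117 genes, against 45 for 1 and 3 and 13 for 2 and 3. The share of all genes that were high was 8.11%, 4.03% and 1.91% on the 3 mesoderm arrays and 3.69%, 2.91% and 5.63% on the 3 neuroepithelium arrays.

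**Figure D2:**
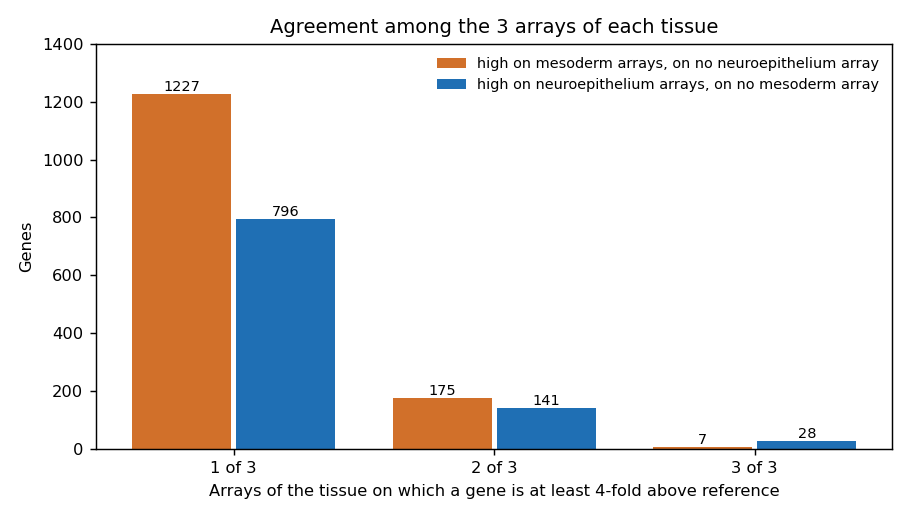
Number of genes at least 4-fold above reference on 1, 2 or 3 arrays of a tissue and on no array of the other. The bars fall from 1227 to 7 genes for the mesoderm and from 796 to 28 for the neuroepithelium.

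Mean differences of at least 4-fold were found for 356 genes placed higher and 454 placed lower in mesoderm, of which 66 and 125 had no overlap between arrays. Without mesoderm array 1, 2 or 3, respectively, 263, 246 and 272 of the 356 stayed at least 4-fold higher. Of the 454, 408, 386 and 325 stayed at least 4-fold lower. Other genes joined them, so that in all 505, 652 and 877 genes were at least 4-fold higher without mesoderm array 1, 2 or 3, and 670, 535 and 389 at least 4-fold lower. Of 64 genes high on all 3 neuroepithelium arrays, 28 were high on no mesoderm array, 13 on mesoderm array 1 alone, 11 on array 2 alone, 4 on array 3 alone and 8 on 2 of them. Of the 16 genes high on all 3 mesoderm arrays, 9 were high on 1 neuroepithelium array. The reference allows at most 4 of its 8 given arrays above it, which caps how many arrays can be high together.

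Epithelial genes were high on the neuroepithelium arrays and on 1 of the mesoderm arrays. Of 35 measured junction and polarity genes, 28 had a negative and 7 a positive difference, where 48.6% of all genes were positive, and the median difference was -0.27 (mean -0.80) against -0.0028 over all genes. Only Epcam passed the limma test among them. High members numbered 8, 6 and 10 on neuroepithelium arrays 1, 2 and 3. On mesoderm arrays 1, 2 and 3 they numbered 2, 8 and 0, so mesoderm array 2 held as many as a neuroepithelium array. Over all genes, 3.69%, 2.91% and 5.63% were high on the neuroepithelium arrays and 8.11%, 4.03% and 1.91% on the mesoderm arrays. The summed ratio of the list was 244 to 387 on the neuroepithelium and 47.7, 392 and 35.1 on the mesoderm arrays.

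Cldn7, a claudin of tight junctions, had ratios of 67.6, 57.5 and 42 on the neuroepithelium and of 0.717, 92.2 and 1.05 on mesoderm arrays 1, 2 and 3. Krt18, a keratin of simple epithelia, had 91.6, 72.4 and 78.6 against 0.825, 88.8 and 1. Krt8, its partner in keratin filaments, had 35.2, 34 and 33.9 against 0.455, 34.4 and 30.5. In all 3 genes, mesoderm array 2 lay at the level of the neuroepithelium and mesoderm array 1 below reference, and array 3 joined the high arrays for Krt8 only. With all arrays, the log2 difference was -3.74 for Cldn7 (SE 1.52) and -4.27 for Krt18 (SE 1.49), each at a limma adjusted p of 1. Without mesoderm array 2, both passed in limma, Cldn7 at -5.98 (adjusted p = 2.59e-05, range over the alternatives 2.59e-05 to 1) and Krt18 at -6.47 (adjusted p = 4.02e-07, range 4.02e-07 to 1). Each gene passed in this 1 of 21 alternatives only. It leaves out the mesoderm array on which both were high, so it is no test of the tissues.

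Further epithelial genes followed parts of that pattern. Cldn4 had 39.2, 69.6 and 3.98 on the neuroepithelium and 0.774, 45.1 and 1.17 on the mesoderm. Rab25, a small GTPase of epithelial membrane recycling, had 36.1, 1.02 and 37.8 against 0.88, 84.6 and 1.01. Ap1m2, of the epithelial sorting adaptor AP-1B, had 13.1, 0.988 and 72.8 against 0.849, 68.4 and 0.887. Mesoderm array 2 was the only mesoderm array that was high for these 3. Spint2, a membrane protease inhibitor, was high on neuroepithelium arrays 1 and 3 (22.6 and 24.3) and on mesoderm arrays 1 and 2 (5.85 and 8.14). Pkp3, a desmosome plaque protein, was high on mesoderm array 2 alone of the 6, at 27.1.

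Crb3, an apical polarity protein, was with Epcam 1 of 2 members high on 2 or 3 neuroepithelium arrays and on no mesoderm array, a pattern of 0.848% of all genes. Its ratios were 43.9, 1.07 and 26.9 on the neuroepithelium and 0.863, 0.995 and 1.04 on the mesoderm, and it was high on no crest array. Several members were high on a single neuroepithelium array: Grhl2 and Spint1 on array 3 (25 and 18.8), Prss8 on array 3 (51.9), and Cldn3 and Esrp1 on array 2 (17.7 and 5.64). All 3 neuroepithelium arrays were high for Epcam, Cldn7, Krt8 and Krt18, and at most 2 of them for the other genes named here.

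**Figure D3:**
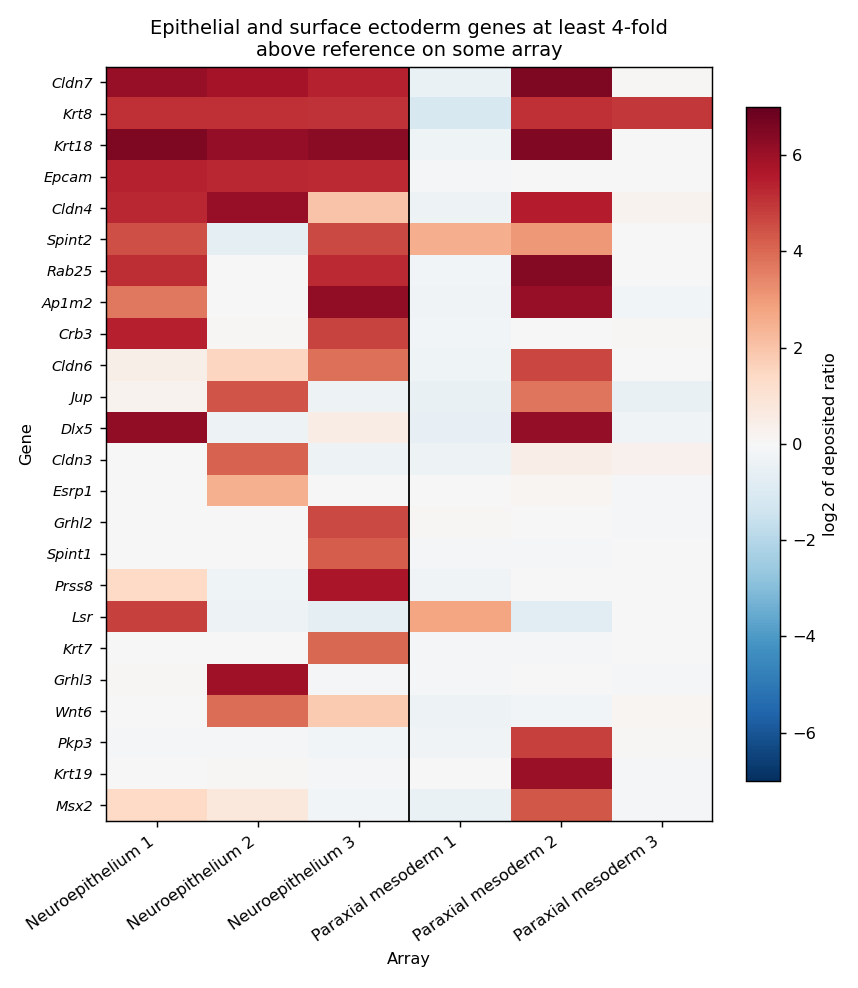
Heat map of log2 ratios of the epithelial and surface ectoderm genes that were high on some of the 6 arrays, with genes in rows and arrays in columns. Cldn7 and Krt18 are high on all 3 neuroepithelium arrays and on mesoderm array 2, and Epcam on the neuroepithelium arrays only.

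Markers of neighbouring cell types were high on different mesoderm arrays. On mesoderm array 1 these were genes of primitive red cells. Of 21 measured erythroid genes, 15 (71.4%) were high on that array, where 8.11% of all genes were, and 0 were high on any of the other 5 arrays. The embryonic globin Hbb-bh1 had 269 on mesoderm array 1 and 0.953 and 1 on arrays 2 and 3, and 0.969 to 1.07 on the neuroepithelium. The embryonic globins Hbb-y and Hba-x had 120 and 85.5 there, the heme synthesis enzyme Alas2 had 76.6, and the erythroid transcription factors Gata1 and Klf1 had 50.9 and 46.6. Each of these 5 genes lay between 0.877 and 1.12 on the other 5 arrays.

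The summed ratio of the erythroid list was 820 on mesoderm array 1, 20.5 and 20.8 on the other mesoderm arrays and 20.3 to 21.3 on the neuroepithelium. Its median log2 difference was 1.27 (mean 1.20) with all arrays and -0.028 (mean -0.008) without mesoderm array 1. The list's difference between the tissues was thus carried by that array, and 0 members passed the limma test. All 18 measured leukocyte and platelet genes lay within 2-fold of reference on the 6 arrays, and of 24 endothelial genes only Egfl7 was high, at 33.8 on neuroepithelium array 1 and 8.34 on mesoderm array 3.

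On mesoderm array 2, 5 of 18 surface ectoderm genes (27.8%) were high, where 4.03% of all genes were, against 0 on mesoderm array 1 and 1 on array 3. The neuroepithelium arrays had 3, 4 and 4 high members (16.7%, 22.2% and 22.2%, where 3.69%, 2.91% and 5.63% of all genes were), so these genes were not particular to mesoderm array 2. Grhl3, Grhl2, Wnt6 and Krt7 of the list were near reference on mesoderm array 2, at 1, 1, 0.869 and 0.927. Of 20 lateral plate and intermediate mesoderm genes, 3 (Bmp4, Msx1 and Msx2) were high on mesoderm array 2 and 17 lay within 2-fold of reference on the 6 arrays. Krt19, a simple epithelial keratin, had 65 on mesoderm array 2 and 0.954 to 1.06 on the other 5 arrays. The homeobox gene Dlx5 had 70.4 there and 75.1 on neuroepithelium array 1. Msx1, a homeobox gene of the neural folds and of other BMP-exposed tissue, had 34.9 there and 24.7, 46.1 and 7.97 on the neuroepithelium, and 0.753 and 0.957 on mesoderm arrays 1 and 3. Msx2 had 20 on mesoderm array 2 and no more than 2.62 elsewhere among the 6. The mean log2 difference of the surface ectoderm list was -0.63 with all arrays and -1.15 without mesoderm array 2, and its summed ratio was 170 to 219 on the neuroepithelium and 15.9, 292 and 47.5 on the mesoderm.

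The BMP ligands Bmp2 and Bmp4 were high on the same array. Bmp2 had 56.9 and Bmp4 had 19.4 on mesoderm array 2. Bmp2 was also at 10.4 on neuroepithelium array 1, and Bmp4 lay between 0.916 and 1.26 on the other 5 arrays. Bmp5, Bmp6 and Bmp7 were at 1.07, 1.08 and 1 on mesoderm array 2, and Bmp7 was high on neuroepithelium array 3 (4.71). Six2, a homeobox gene of cranial mesoderm, had 45.9 on mesoderm array 2, and Hey2, a Notch target, had 23.3. Pou5f1, which is expressed in the epiblast and in germ cells, had 106 on mesoderm array 2 and 45.4 on neuroepithelium array 3, the pair of arrays that also had Otx2.

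On mesoderm array 3 the markers were those of notochord and floor plate. Of 17 measured genes of that list, 5 were high there, where 1.91% of all genes were, and 4 of them were high on no other array compared. Nkx2-9, a homeobox gene of the ventral midline, had 62.9 on mesoderm array 3 and 0.763 to 1 on the other 5. Nkx6-1, of the ventral neural tube, had 36.5, the BMP antagonist Nog had 9.63 and the forkhead factor Foxa2 had 7.64, each at 1.21 or less elsewhere. The fifth was Krt8, described above. The list's median log2 difference was 0.12 and its mean -0.021, of opposite sign, and without mesoderm array 3 they were -0.046 and -0.34, while its summed ratio was 122 to 192 on the neuroepithelium and 15.2, 202 and 160 on the mesoderm.

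**Figure D4:**
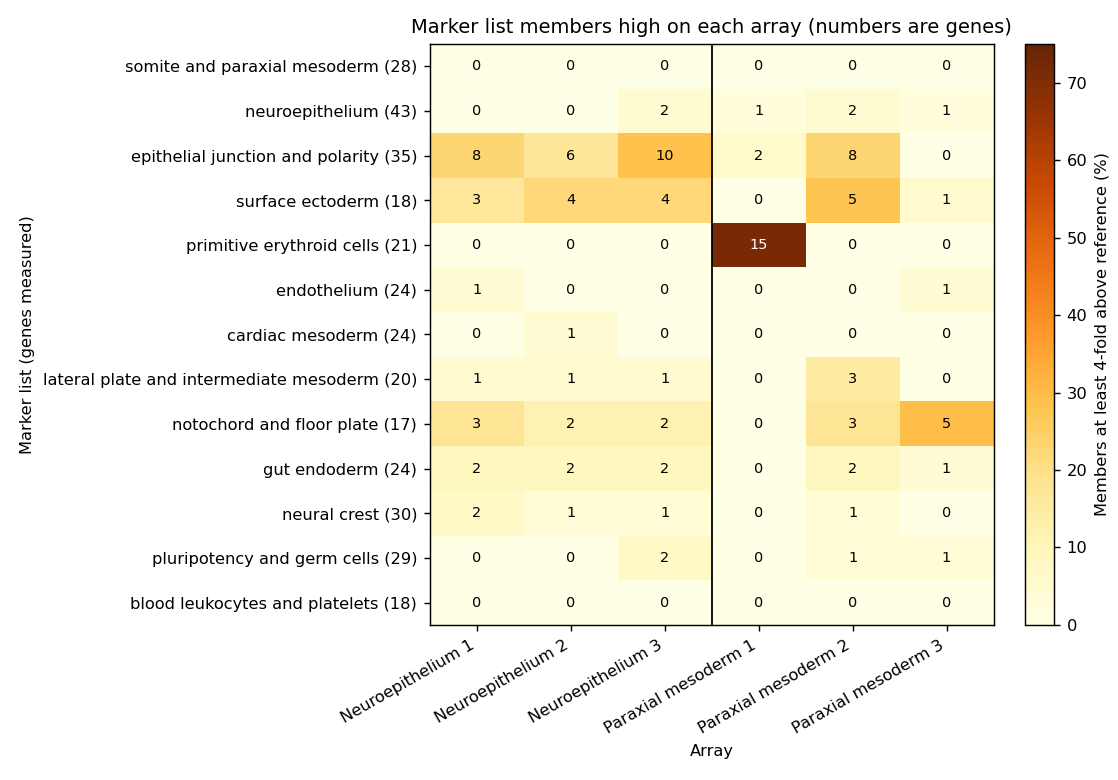
Share of the members of each marker list that were high on each array, as colour, with the number of genes in each cell. Erythroid genes are high on mesoderm array 1 only (15 of 21), epithelial genes on the neuroepithelium and mesoderm array 2, and somite genes on none of the 6 arrays.

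Other neighbours left few traces. Of 24 cardiac genes only Myl7 was high, at 38.2 on neuroepithelium array 2. Of 24 gut endoderm genes, the high ones were Foxa2 and the epithelial genes Cldn4, Cldn6 and Epcam that other lists hold too. Of 30 neural crest genes, mesoderm arrays 1, 2 and 3 had 0, 1 and 0 high members and the neuroepithelium arrays 2, 1 and 1. The shares were 0%, 3.33% and 0% on the mesoderm (8.11%, 4.03% and 1.91% of all genes). On the neuroepithelium they were 6.67%, 3.33% and 3.33% (3.69%, 2.91% and 5.63% of all genes). What the erythroid, ectodermal and midline genes high on mesoderm arrays 1, 2 and 3 contribute to genes outside these lists was not tested.

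Mesenchymal genes did not stand out on the mesoderm. Of 33 measured, 26 lay within 2-fold of reference on the 6 arrays, and the median difference was -0.03. Vim, the intermediate filament of mesenchymal and neuroepithelial cells, had 0.0526, 0.0598 and 5.18 on mesoderm arrays 1, 2 and 3 and 1, 4.42 and 0.264 on the neuroepithelium. It was thus low on 2 mesoderm arrays and high on the third. Fbln1, a matrix protein, had 32.6 on mesoderm array 3 and 7.64 on neuroepithelium array 2. Sparc, a matrix protein, had 59.4 on mesoderm array 3 and 77.9 on neuroepithelium array 1. Of 70 collagens, laminins and integrins, 69 stayed within 2-fold, the exception being Itgb1 at 12.6 on mesoderm array 1.

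Among signalling genes, Id2 was low on every mesoderm array. Id2, an inhibitor of bHLH transcription factors, had ratios of 0.146, 0.161 and 0.172 on the 3 mesoderm arrays and of 4.17, 1.76 and 1.34 on the neuroepithelium. It was the only gene of 19938 (0.00502%) that was low on all 3 mesoderm arrays and on no neuroepithelium array. The crest arrays lay between 0.404 and 9.71, and its log2 difference of -3.75 (SE 1.01) had a limma adjusted p of 1. Id1 was low on mesoderm arrays 1 and 3 (0.0669 and 0.212) and 1.22 on array 2, and between 0.99 and 1.65 on the neuroepithelium. Id3 was at 0.01, the lowest deposited value, on mesoderm array 1 and on neuroepithelium array 2. Of 41 genes of the BMP and TGF-beta pathway, 0 passed the limma test and the median difference was -0.023. Bambi, a decoy receptor, was high on neuroepithelium arrays 1 and 2 (12.2 and 28.7) and on mesoderm array 3 (8.66).

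The cellular retinoic acid binding proteins were low on the same pair of mesoderm arrays. Crabp1 had 0.136, 2.56 and 0.11 on the mesoderm and 5.65, 13 and 0.448 on the neuroepithelium. Crabp2 had 0.0711, 3.5 and 0.0773 on the mesoderm and 5.78, 0.0607 and 8.7 on the neuroepithelium. Mesoderm arrays 1 and 3 were low for both genes and array 2 above reference, and the 2 tissues overlapped. Rdh10, which makes retinal for retinoic acid synthesis, was high on neuroepithelium array 3 only (16.7). The other members of the 20 measured stayed within 2-fold on the 6 arrays, and 0 passed the limma test.

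Of 54 Wnt pathway genes, 0 passed and 1 was high on 2 or 3 mesoderm arrays and no neuroepithelium array, a pattern of 0.913% of all genes. This was Lgr4, an R-spondin receptor, with 38.8, 1.01 and 68.9 on the mesoderm and 0.991 to 1 on the neuroepithelium. Wls, which carries Wnt ligands to the cell surface, was high on mesoderm arrays 2 and 3 (35 and 10.3) and on neuroepithelium arrays 1 and 3 (24.6 and 19.9). Sfrp2, a secreted Wnt inhibitor, was low on mesoderm array 1 (0.088) and on neuroepithelium arrays 1 and 2 (0.0918 and 0.0731), and at 5.15 on mesoderm array 3.

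The remaining signalling lists held few genes off reference. All 26 measured Hox genes lay within 2-fold on the 6 arrays, with a median difference of 0.00083. Of 28 Notch genes, 27 did, the exception being Hey2. Of 28 FGF and ERK genes, 23 did, and Fgf3 was high on mesoderm array 1 only (8.15). Of 17 Hedgehog genes, 14 did, and Cdon, a Hedgehog co-receptor, was high on neuroepithelium array 3 (9.14). Of 19 ephrins and Eph receptors, 17 did, and the others were Efna4 and Efna1, the latter at 14.7 on neuroepithelium array 3.

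Genes of fatty acid oxidation and electron transfer were high on arrays of both tissues. Of 29 measured, 7, 7 and 2 were high on mesoderm arrays 1, 2 and 3 (24.1%, 24.1% and 6.9%, where 8.11%, 4.03% and 1.91% of all genes were). On neuroepithelium arrays 1, 2 and 3 they numbered 3, 4 and 2 (10.3%, 13.8% and 6.9%, where 3.69%, 2.91% and 5.63% of all genes were). Acadm, the medium-chain dehydrogenase that passes electrons to the flavoprotein holding Etfa, had 36.4, 25.9 and 1 on the mesoderm and 0.929, 3.55 and 1.07 on the neuroepithelium. Eci2, an enoyl isomerase of the pathway, had 57.6, 70.3 and 0.983 against 1, 1.1 and 1. Hadh had 39.4, 103 and 0.688 on the mesoderm, and 22.1 on neuroepithelium array 2. Etfa, Acadm and Eci2 were the 3 members high on 2 or 3 mesoderm arrays and no neuroepithelium array, of 0.913% of all genes.

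Other members were high on 1 mesoderm array. Hadhb of the trifunctional protein had 47.2 and Hadha 7.04 on array 1. Echs1, Ivd and Acad8 had 73.1, 39.4 and 31.4 on array 2. Acaa2, the thiolase of the pathway, showed the opposite pattern, with 65.7, 0.948 and 4.71 on the neuroepithelium against 1.36, 1.02 and 0.873. Etfb, the partner of Etfa, had 0.848, 0.19 and 1.71 on the mesoderm and 1.11, 1.13 and 0.539 on the neuroepithelium. The 2 subunits of the flavoprotein thus did not share a pattern. The family's median difference was 0.011 (mean 0.37), and 0 members passed the limma test.

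Subunits of the respiratory chain were low more often on mesoderm array 3. Of 95 oxidative phosphorylation genes, 3, 9 and 24 were low on mesoderm arrays 1, 2 and 3, against 3, 10 and 2 on the neuroepithelium, where 0.542%, 1.1% and 2.27% of all genes were low on the mesoderm arrays and 0.757%, 2.03% and 0.507% on the neuroepithelium. Of the 95, 5 were low on at least 2 mesoderm arrays and on no neuroepithelium array, where 0.341% of all genes were, and 1 the other way, where 0.176% were. Equally, 5 were high on 2 or 3 mesoderm arrays and on no neuroepithelium array (0.913% of all genes), and 2 the other way (0.848%). High members numbered 13, 6 and 4 on the mesoderm arrays (8.11%, 4.03% and 1.91% of all genes). On the neuroepithelium they numbered 7, 8 and 6 (3.69%, 2.91% and 5.63% of all genes). Ndufa5, of complex I, had 1, 0.0307 and 0.0467 on the mesoderm and 1.28, 1.18 and 1.62 on the neuroepithelium. Ndufa10 had 2.55, 0.184 and 0.0484 against 0.321, 1.04 and 1. Ndufb6 had 0.312, 1 and 0.0331 against 2.77, 6.87 and 4.05. Mesoderm array 3 was low for all 3 genes, and array 2 for Ndufa5 and Ndufa10.

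Ndufs7, a catalytic core subunit of complex I, went the other way, with 0.0275, 0.022 and 0.47 on the neuroepithelium and 1.06, 1 and 0.945 on the mesoderm. Cox6b2, a cytochrome oxidase subunit, had 45.2, 19.7 and 1 on the mesoderm and 0.795 to 0.896 on the neuroepithelium. Ndufa4l2 had 0.775, 10.3 and 87.1 on the mesoderm and 0.855 to 1.02 on the neuroepithelium. The family's median difference was -0.067 and its mean -0.29, and the mean was 0.10 without mesoderm array 3. Members of the family thus parted in both directions, and 0 of 95 passed the limma test.

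Mitochondrial ribosomal proteins were spread in the same way. Of 77 measured, 7 stayed within 2-fold on the 6 arrays. High members numbered 25, 13 and 6 on mesoderm arrays 1, 2 and 3, where 8.11%, 4.03% and 1.91% of all genes were high. Low members numbered 4, 12 and 20, where 0.542%, 1.1% and 2.27% of all genes were low. On the neuroepithelium 17, 11 and 15 were high (3.69%, 2.91% and 5.63% of all genes). Low ones there numbered 2, 23 and 8 (0.757%, 2.03% and 0.507% of all genes). Mrpl13 had 1.71, 0.0305 and 0.0261 on the mesoderm and 4.6, 4.75 and 2.61 on the neuroepithelium, the 2 sets not overlapping. Mrps35 had 46.7, 9.4 and 1 against 0.973, 0.963 and 0.817. The family's mean difference was -0.033 with all arrays, -0.57 without mesoderm array 1 and 0.49 without array 3, so its sign turned with the array left out. Cytosolic ribosomal proteins were quiet beside them, with 55 of 62 within 2-fold.

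The proteasome and the translation factors shared that order of arrays. Of 48 proteasome genes, 11, 5 and 0 were high and 1, 3 and 16 low on mesoderm arrays 1, 2 and 3. On the neuroepithelium arrays 3, 3 and 5 were high and 2, 8 and 4 low, so low members occurred in both tissues. Psmd2, of the regulatory particle of the proteasome, had 19, 13.6 and 0.382 on the mesoderm and 1, 1.44 and 1.9 on the neuroepithelium, and its second probe gave like values of 19, 8.62 and 0.406. Of 49 translation factors, 9, 6 and 0 were high and 1, 6 and 13 low on the mesoderm, and 3, 3 and 5 high and 5, 9 and 1 low on the neuroepithelium. Eif3l had 1.73, 0.079 and 0.0489 on the mesoderm and 1.01 to 1.45 on the neuroepithelium. Over all genes, high ratios were likewise most frequent on mesoderm array 1 and low ratios on mesoderm array 3. On mesoderm arrays 1, 2 and 3, 8.11%, 4.03% and 1.91% of all genes were high and 0.542%, 1.1% and 2.27% low. On the neuroepithelium 3.69%, 2.91% and 5.63% were high and 0.757%, 2.03% and 0.507% low.

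**Figure D5:**
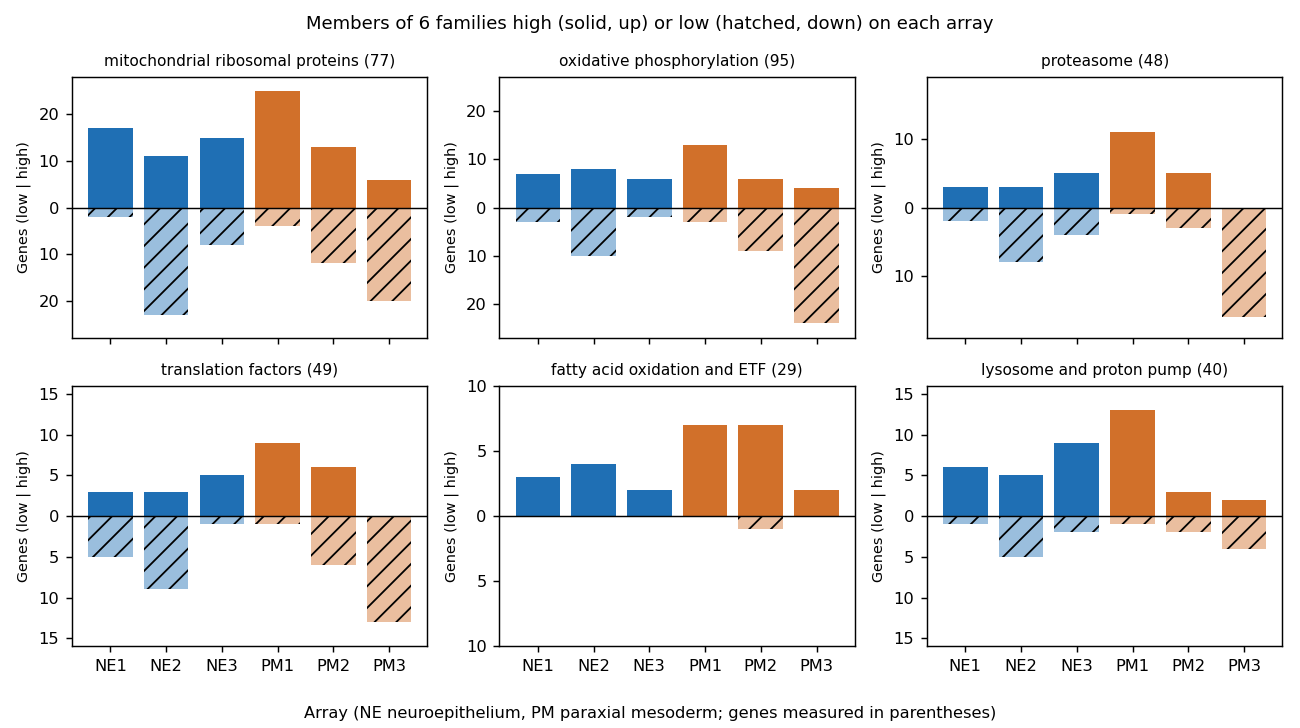
Number of members of 6 families that were high (solid bars, upward) or low (hatched bars, downward) on each of the 6 arrays. Low members reach 24 of 95 for oxidative phosphorylation and 16 of 48 for the proteasome on mesoderm array 3, where 2.27% of all genes were low.

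DEAD and DEAH box helicases, which unwind RNA, were high for 14, 3 and 1 of 51 genes on mesoderm arrays 1, 2 and 3 and for 2, 1 and 5 on the neuroepithelium. Ddx21, a nucleolar helicase, had 20.1, 5.56 and 0.61 on the mesoderm and 0.574 to 1 on the neuroepithelium. Ddx28, of the mitochondrial matrix, had 5.37, 0.9 and 55.7 against 0.843 to 1.03. Among 68 splicing genes, 13, 5 and 0 were high on the mesoderm and 0, 1 and 8 on the neuroepithelium. Hnrnpl had 10.8, 4.84 and 0.981 on the mesoderm and 0.57 to 1.14 on the neuroepithelium. Mesoderm array 1 held 27.5% of the helicases and 19.1% of the splicing genes as high members. That array also had the largest share of high genes over all genes. These shares were 8.11%, 4.03% and 1.91% on the mesoderm arrays and 3.69%, 2.91% and 5.63% on the neuroepithelium arrays.

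Lysosome and proton pump genes were high for 13, 3 and 2 of 40 members on the mesoderm and for 6, 5 and 9 on the neuroepithelium. These were 32.5%, 7.5% and 5% on the mesoderm, where 8.11%, 4.03% and 1.91% of all genes were high, and 15%, 12.5% and 22.5% on the neuroepithelium, where 3.69%, 2.91% and 5.63% were. Besides Lamp1, the proton pump subunit Atp6v1f was low on mesoderm arrays 1 and 3 (0.118 and 0.0435) and between 1.02 and 2.4 on the neuroepithelium, on 2 probes alike. Atp6v1e1 had 144, 120 and 1 on the neuroepithelium and 95.9, 0.753 and 0.934 on the mesoderm. Lamp2, a relative of Lamp1, was high on neuroepithelium arrays 2 and 3 (56.5 and 33.7) where Lamp1 was low, and at 4.11 on mesoderm array 1.

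Among histone deacetylase and Polycomb complexes, 3 of 47 genes were high on 2 or 3 neuroepithelium arrays and no mesoderm array, where 0.848% of all genes were, and 0 the other way. Sinhcaf, a subunit of the Sin3 deacetylase complex, had 3.42, 16.1 and 23.1 on the neuroepithelium and 0.331, 0.944 and 0.66 on the mesoderm, and its 2 probes were alike. Its log2 difference was -4.20 (SE 0.71, limma adjusted p = 0.797), lower on 3 of 3 mesoderm arrays. It passed without neuroepithelium array 1 (limma adjusted p = 0.0233, range over the alternatives 0.0233 to 1). That array was the lowest of its tissue for Sinhcaf, so leaving it out is no test of the tissues. Hdac3 had 35.8, 0.378 and 6.58 on the neuroepithelium against 0.342, 1 and 0.334. Pcgf1, of a Polycomb complex, had 17.4, 0.973 and 42.9 against 1.04, 1 and 0.967.

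Cell cycle genes did not separate as a group. Of 47 measured, 11, 3 and 3 were high on the mesoderm and 7, 4 and 7 on the neuroepithelium, with a median difference of 0.019. The shares were 23.4%, 6.38% and 6.38% on the mesoderm (8.11%, 4.03% and 1.91% of all genes) and 14.9%, 8.51% and 14.9% on the neuroepithelium (3.69%, 2.91% and 5.63% of all genes). Bub1, a spindle checkpoint kinase, had 10.5, 6.83 and 3.81 on the neuroepithelium and 0.963, 0.907 and 1.2 on the mesoderm. Gins1, of the replicative helicase, had 7.3, 38.2 and 5.55 against 1.69, 0.282 and 1. Ccne2, a G1/S cyclin, stood on the other side, with 8.16, 17.6 and 0.871 on the mesoderm and 0.9 to 1.03 on the neuroepithelium. Plk1, a mitotic kinase, was low on neuroepithelium arrays 2 and 3 (0.0711 and 0.114) and near or above 0.696 on the others.

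Annexins, calcium-dependent membrane binding proteins, had 10 negative differences of 12 (16.7% positive, where 48.6% of all genes were). Most of these were small, since 9 of the 12 stayed within 2-fold of reference on the 6 arrays and the median difference was -0.051. Anxa7 had ratios of 16, 13.5 and 6.3 on the neuroepithelium and of 2.11, 1.01 and 0.815 on the mesoderm, without overlap, and 0.76 to 1 on the crest. The log2 difference was -3.20 (SE 0.41, limma adjusted p = 0.14), lower on 3 of 3 mesoderm arrays. It passed without mesoderm array 1 or without neuroepithelium array 3, over a range of 0.0221 to 1 in the alternatives. These were the arrays of each tissue nearest to the other tissue, so leaving them out is no test of the tissues. Anxa2 and Anxa5 were each high on 1 neuroepithelium array (91.1 on array 2 and 34.8 on array 3). Among cytoskeletal genes, the calponin Cnn2 had 0.895, 94.9 and 74.9 on the neuroepithelium against 0.732, 1.03 and 0.83, and Cnn3 was low on mesoderm arrays 1 and 2 (0.0146 and 0.015) and at 1.15 on array 3.

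Imprinted genes differed between mesoderm arrays. Mest, a paternally expressed gene first described as mesoderm-specific transcript, had ratios of 0.01, 0.102 and 0.363 on the mesoderm and of 1, 1.12 and 1 on the neuroepithelium. All 3 mesoderm arrays lay below every neuroepithelium and crest array, the lowest of which was at 1. The log2 difference was -3.85 (SE 1.03, limma adjusted p = 1, range over the alternatives 0.107 to 1), and mesoderm array 1 was at the lowest deposited value. Sgce, which neighbours the imprinted Peg10, had 0.983, 30.5 and 91.9 on the mesoderm and 0.918 to 1.03 on the neuroepithelium. The growth inhibitor Cdkn1c had 42.4 and the noncoding RNA Meg3 had 23.5 on mesoderm array 3. Dlk1, from the same imprinted cluster as Meg3, was high on mesoderm array 2 instead (11.2). Of 26 measured, 1, 4 and 3 were high on the mesoderm and 0, 1 and 1 on the neuroepithelium.

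Of 25 stress genes measured, 19 had a negative and 6 a positive difference (24% positive, where 48.6% of all genes were). The metallothioneins Mt1 and Mt2, which bind zinc and copper, were high on all 3 neuroepithelium arrays and on mesoderm arrays 1 and 2, but near reference on array 3. For Mt1 the ratios were 12.7, 26.6 and 21.8 on the neuroepithelium and 25.4, 24.9 and 0.864 on the mesoderm. Junb, an immediate early gene, had 17.6, 7.92 and 0.991 on the neuroepithelium and 1.78, 0.975 and 0.893 on the mesoderm. The median difference of the stress genes was -0.064, and 0 of them passed the limma test. Among ubiquitous genes, Tbp, the TATA-binding protein, had 44.4, 0.908 and 97.1 on the mesoderm and 0.851 to 1.5 on the neuroepithelium, and Hprt had 35.6, 5.36 and 0.332 against 0.297, 15.7 and 6.72. These 2 genes thus took ratios far apart between arrays of a tissue, while 6 of 14 measured ubiquitous genes stayed within 2-fold on the 6 arrays.

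Clptm1l and Mtap showed how mixed such separations can be. Clptm1l, a membrane protein, had 6.98, 1.94 and 9.77 on the mesoderm and 1, 0.204 and 0.206 on the neuroepithelium, a log2 difference of 3.87 (SE 0.77, limma adjusted p = 1) with every mesoderm array above every neuroepithelium array. Mtap, an enzyme of methionine salvage, had 1, 5.67 and 0.17 on the mesoderm and 0.113, 0.108 and 0.137 on the neuroepithelium. The arrays of Mtap did not overlap either, at a gap of 1.25-fold.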

How the data were processed

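The table held 11 Affymetrix mouse ST arrays, and the groups were taken from the labels. Per the submitters' processing notes, RMA was used and the build was mm9, with no RMA version listed. The authors deposited a linear ratio per probe, with the lowest value at 0.01, and the sources used here do not say how the ratio was made. Of 28856 probes with values, 21789 had 1 symbol in the platform annotation, 1621 several and 5446 none. Symbols were checked against RefSeq (GRCm38.p6), which matched 21698 probes and changed 0. The probe with the highest mean log2 ratio stood for each of 19938 genes. All columns were matched to a sample (0 unmapped).

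The 3 group means of log2 ratios were fitted to all 11 arrays with lmFit and eBayes without a trend (limma 3.58.1, R 4.3.3), since ratios carry no intensity. P-values were two-sided and adjusted by the Benjamini-Hochberg method over 19938 genes, with a threshold of 0.05, and the fit was tested on simulated data. The 7067 probes with several symbols or none were fitted apart, and 0 passed in limma, with 146 at an unadjusted p under 0.05.

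Named genes were those that passed, the 12 widest gaps each way, list members high or low on at least 2 of 3 arrays of 1 tissue and on none of the other, for lists of other cell types up to 6 members per list that were high on exactly 1 mesoderm array and on no neuroepithelium array, defining markers of the 2 tissues, and Mest, Id2, Etfa, Clptm1l, Lamp1 and Mtap from earlier work. Other genes were named after their values were seen. The genes compared, the 45 gene lists and the rules were chosen with earlier results of these data known. Alternatives changed the variance model, scaling, floor, probe choice, filter, the replicate number as a block and the arrays in the fit. The number of arrays limits the precision.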

Additional observations from a re-analysis of the deposited data

How the results depend on the processing

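Across 21 alternatives, 0 of the differences of 32 named genes reversed, 659 values kept their call, 3 lost it (all Gm5617) and 10 gained it. With only the 6 arrays compared, 1 gene passed as higher (Etfa). Leaving out 1 array at a time gave 0 to 34 genes passing as higher and 3 to 14 as lower. It gave 1231 to 1673 genes without overlap as higher where arrays of the 2 tissues were left out, 1524 to 2020 as lower, and gaps of at least 4-fold for 13 to 123 genes as higher and 39 to 82 as lower. With genes at least 2-fold off reference on some array, 178 genes had no overlap as higher and 249 as lower, since fewer genes were tested. Quantile normalization and a pseudocount of 0.1 each left 7 genes with a gap of at least 4-fold as higher, and the cause was not tested. Calls gained by leaving out 1 array include Crb3 and Pcgf1 (without neuroepithelium array 2), Junb and Ndufs7 (neuroepithelium array 3), Sgce (mesoderm array 1), Lgr4 and Tbp (mesoderm array 2), Cox6b2 (mesoderm array 3) and Gspt2 (crest array 5). For each of these genes, the array left out stood apart from the others of its tissue. These calls are therefore no test of the tissues. Of 943 list medians over 45 lists, 96 moved, 56 of them on leaving out an array. Same-numbered arrays of the 2 tissues did not deviate together (correlations of -0.00767, -0.0145 and -0.121). Arrays of 1 tissue themselves correlated at only 0.0166 to 0.156, so this cannot show whether the numbers pair the samples. With the replicate number as a block, 0 genes passed as higher and 2 as lower. The ratios hold no signal over background, so what dim probes limit cannot be shown.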
